A study of Drosophila melanogaster with 3 samples.

Results

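Genes that run and restrain the cell division cycle of Drosophila melanogaster, 10 in all, were examined for peaks of a GFP-tagged protein in whole embryos. They are the cyclin genes CycA, CycB, CycD and CycE, the transcription factor genes E2f1, E2f2 and Dp, the retinoblastoma-family gene Rbf, the cyclin-dependent kinase inhibitor gene dap and the phosphatase gene stg. The genes were taken by name, with no measured value in the rule, though earlier results of these data were known when the list was made. All 10 of 10 were found among the 13945 protein-coding genes annotated on 6 chromosome arms. Chromatin was immunoprecipitated with an anti-GFP antibody from mixed-sex embryos collected at 0 to 24 h and fragmented by sonication to 200 to 800 bp. There was 1 group of 3 biological replicates, numbered 1, 2 and 4, each from its own biosample of 1 transgenic line. The labels disagree on the tag: the strain name CG18619-GFP and the source field point to REPTOR-BP, whereas a note and the description give REPTOR with GFP at its C terminus. Both are basic leucine zipper (bZIP) factors of the response to low TORC1 activity, so the antibody's target is written here as the tagged protein. The sources used here give neither the promoter that drives the tagged gene nor whether the untagged copy remains. No untagged or treated group was analysed here, so peaks are described and no test between groups was possible. Read depth is unknown, and whole embryos mix all cell types and cycle stages.

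Cyclins are the activating subunits of cyclin-dependent kinases. CycD with Cdk4 and CycE with Cdk2 act before and at entry into S phase, and CycA and CycB with Cdk1 act up to and in mitosis. E2F proteins bind DNA as dimers with Dp. In flies E2f1 mainly activates genes for S phase, CycE among them, E2f2 mainly represses, and Rbf binds E2F and holds it inactive until cyclin-dependent kinases phosphorylate it. The product of dap inhibits CycE with Cdk2, and stg encodes the fly Cdc25, which switches on Cdk1 and times mitoses in the embryo.

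Peaks were found at 6 of the 10 genes and were strongest beside CycB, in CycE and in Dp. In the authors' list of reproducible peaks, called the optimal list, 16 of 5208 summits lay inside one of the genes or within 2 kb. E2f1 had 7 of them, Dp 3, CycE and E2f2 2 each, and CycB and dap 1 each, whereas CycA, CycD, Rbf and stg had none. The share of 60% (95% Wilson interval 31.3 to 83.2, counting error only) compares with 36.1% of all protein-coding genes, which lies inside that interval. Each of the 10 genes is longer than the median gene of 2166 bp, and the shares were not adjusted for length. A summit within 500 bp of an isoform start was found at 4 genes, CycE, E2f1, E2f2 and Dp (40%, interval 16.8 to 68.7), against 20.6% of all genes. By the features of these genes alone, 9 of the 16 summits were in introns and 1 in a 5' untranslated exon. Another 4 were upstream of the gene and 2 downstream. None was in coding sequence of these genes, and exons of neighbouring genes were not checked. The same places were not counted over all optimal peaks, so these counts show no preference. The members' summits were of ordinary strength: their median pooled signal was 251.6, against 252.04 over all optimal peaks, with 8 above and 8 below the latter.

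**Figure D1:**
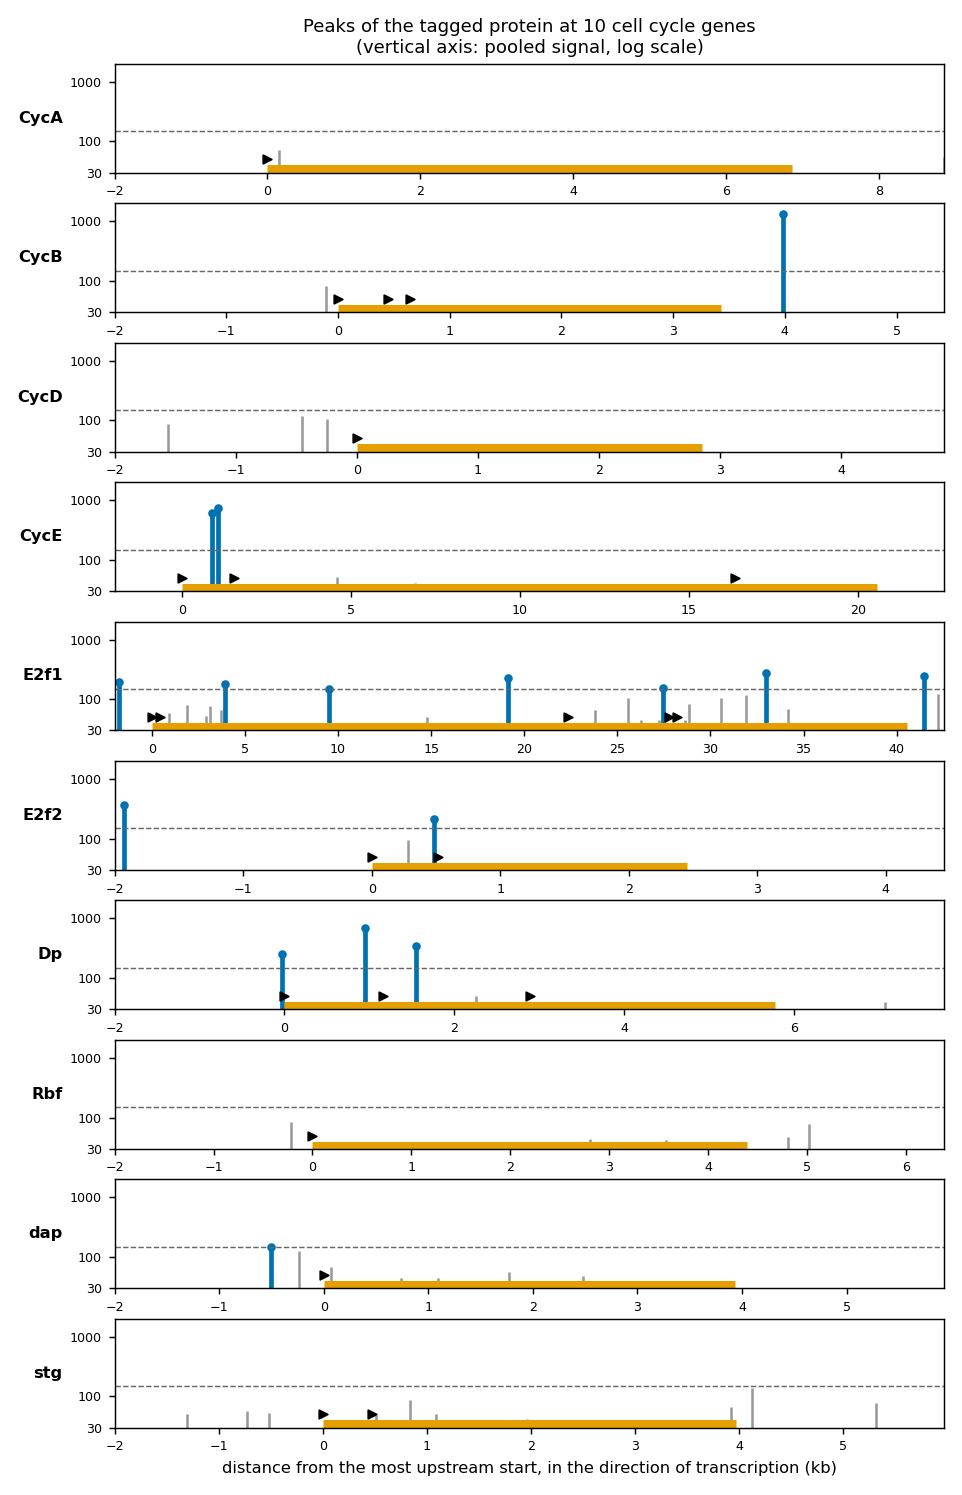
Pooled signal (vertical axis, log scale from 30) of regions inside or within 2 kb of each of the 10 genes, by distance in kb from the most upstream start in the direction of transcription. Blue stems are optimal peaks, grey stems weaker pooled regions, orange bars the gene, arrowheads isoform starts, and the dashed line is the lowest signal of the optimal list, 148.2. CycE has a close pair of peaks between its first 2 starts, E2f1 has peaks spread along the gene, and the peak of CycB lies past its end.

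CycE carried a pair of summits 199 bp apart in an intron, and their sequence is shown because it holds the strongest peak inside any of these genes. The gene (2L, 15727581 to 15748150, minus strand) has 6 annotated isoforms from 3 starts. The summits lay 875 and 1074 bp past the first start, which serves 2 isoforms, and 665 and 466 bp before the second start, which serves 3. The third start, of 1 isoform, had no optimal summit within 500 bp. The genomic plus strand of chr2L:15747026-15747325 is given 5' to 3', read from the RefSeq dm6 assembly, with the 21 bases at each summit in capitals, the one nearer the second start first.
CycE pair: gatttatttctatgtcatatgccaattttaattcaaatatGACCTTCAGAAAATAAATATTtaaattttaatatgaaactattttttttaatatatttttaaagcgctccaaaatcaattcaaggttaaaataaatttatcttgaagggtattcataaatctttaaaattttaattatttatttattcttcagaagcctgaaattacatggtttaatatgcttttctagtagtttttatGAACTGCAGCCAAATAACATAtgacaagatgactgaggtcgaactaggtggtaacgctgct
This stretch was 75% A and T, with a longest run of 26 bases without G or C.

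The stronger CycE summit (2L, 15746885 to 15747150, pooled signal 747, rank 401) had a signal of 242.6, 190.5 and 332.2 in replicates 1, 2 and 4. These regions ranked 411, 438 and 367 of 30000 in the replicate lists, so its rank was nearly the same in each. Their summits lay 23, 50 and 1 bp from the pooled summit. The other summit of the pair (15747127 to 15747363, pooled signal 616.6, rank 569) had 217.3, 87.59 and 255.3, at ranks 509, 2026 and 607. Replicate 2 was far lower than the others at this summit, and placed the region 55 bp from the pooled summit. Signals are on each list's own scale, so they were also divided by the signal of region 5208 of the same list, which was 50.2, 52.2 and 56.0 in replicates 1, 2 and 4. On this relative scale, where 1 is the strength of that last region, the stronger summit had 4.80 ± 1.14 and the other 3.52 ± 1.6 (SD, n = 3), and the ranges of their replicate values overlapped. Within each replicate the stronger summit was the higher one, by 4.83 against 4.33, 3.65 against 1.68 and 5.93 against 4.56 in replicates 1, 2 and 4.

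E2f1, the activator E2F, had more peaks than any other of these genes, none above a pooled signal of 275.2. The gene (3R, 21620304 to 21660871, minus strand) is 40568 bp long with 6 isoforms from 5 starts, and 5 of its 7 summits lay inside it, all in introns. By the same rule 71 of all genes (0.509%) had 7 or more summits. There were 453 genes as long as E2f1 or longer, and the median length was 2166 bp. Per 10 kb of gene with 2 kb to each side E2f1 had 1.57 summits, against a mean of 0.645 over all genes. Over the whole arms the density was 0.389 per 10 kb. Whether the count of E2f1 follows from its length was not tested. Neighbouring summits were 5507 to 9595 bp apart. The 5 intronic windows, 100 bp to each side of the summit, are shown because none has the start of another gene within 500 bp. They are numbered 1 to 5 in the order of transcription, on the genomic plus strand, 5' to 3', from RefSeq dm6, with the 21 bases at the summit in capitals.
E2f1 window 1, chr3R:21656859-21657059: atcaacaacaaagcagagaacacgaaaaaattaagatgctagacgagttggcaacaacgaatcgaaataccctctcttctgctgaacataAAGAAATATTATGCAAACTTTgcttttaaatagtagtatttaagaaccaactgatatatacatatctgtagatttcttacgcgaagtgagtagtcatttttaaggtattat
E2f1 window 2, chr3R:21651248-21651448: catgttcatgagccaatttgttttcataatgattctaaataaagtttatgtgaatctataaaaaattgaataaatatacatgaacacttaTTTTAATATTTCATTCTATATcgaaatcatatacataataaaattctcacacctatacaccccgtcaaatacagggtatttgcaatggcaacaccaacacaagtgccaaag
E2f1 window 3, chr3R:21641653-21641853: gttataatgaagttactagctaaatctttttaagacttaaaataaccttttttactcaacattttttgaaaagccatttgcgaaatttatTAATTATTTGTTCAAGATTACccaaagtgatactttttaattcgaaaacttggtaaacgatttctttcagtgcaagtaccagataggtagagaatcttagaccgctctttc
E2f1 window 4, chr3R:21633317-21633517: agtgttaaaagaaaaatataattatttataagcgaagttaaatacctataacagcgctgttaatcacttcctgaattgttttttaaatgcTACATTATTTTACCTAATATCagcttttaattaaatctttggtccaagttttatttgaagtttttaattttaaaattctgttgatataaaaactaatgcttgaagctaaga
E2f1 window 5, chr3R:21627810-21628010: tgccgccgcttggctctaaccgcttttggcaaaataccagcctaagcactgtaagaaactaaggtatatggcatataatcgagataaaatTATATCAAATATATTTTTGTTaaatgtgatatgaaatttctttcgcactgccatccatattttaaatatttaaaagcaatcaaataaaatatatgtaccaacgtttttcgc
The share of A and T in these windows ran from 68.2% in windows 1 and 5 to 76.6% in window 4.

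The strongest E2f1 peak was that of window 5 (21627682 to 21628137, pooled signal 275.2, rank 2288), 4783 bp past the nearest start. Its signal was 85.7, 81.5 and 101 in replicates 1, 2 and 4, at ranks 2504, 2324 and 2585, a relative signal of 1.69 ± 0.122 (SD, n = 3). The replicates ranked this peak almost alike. The peak of window 3 (pooled signal 228.8) lay 3259 bp before a start of 1 isoform and had 68.5, 88.7 and 77.3, a relative signal of 1.48 ± 0.189. It was highest in replicate 2, unlike most of the others.

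The remaining intronic peaks of E2f1 stood near the lower limit of the optimal list. Window 4, 344 bp before a start of 2 isoforms, gave the only promoter peak of the gene (pooled signal 155.1, rank 4921). It had 47.4, 55.03 and 39.8 in replicates 1, 2 and 4, and only replicate 2 put it among its 5208 strongest regions. Window 1 (pooled signal 179.3), 3473 bp past a start, had 71.3, 44.1 and 59.8, of which that of replicate 2 fell outside the strongest 5208. Window 2 (149.5), 9084 bp from the nearest start, had 46.0, 49.8 and 56.5, just under the relative level of 1 in replicates 1 and 2 and just over it in replicate 4.

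Both E2f1 peaks outside the gene were nearer to other genes. The one downstream (21619147 to 21619602, pooled signal 246.7) lay 929 bp past the end of E2f1 and 54 bp from a start of InR, the insulin receptor gene. It had 81.8, 69.5 and 96.3 in replicates 1, 2 and 4, a relative signal of 1.56 ± 0.202 (SD, n = 3). The one upstream (21662408 to 21662863, pooled signal 196.9) lay 1765 bp before the first start of E2f1, within Archease and 336 bp from its start. It had 75.8, 62.8 and 52.6, a relative signal of 1.22 ± 0.286, and fell below 1 in replicate 4.

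E2f2, the repressor E2F (2L, 21154293 to 21156749, minus strand, 2 isoforms from 2 starts), had a promoter peak that it shared with a neighbour on the other strand. The summit (interval 21156038 to 21156493, pooled signal 211.4, rank 3298) lay in a 5' untranslated exon of the longer isoform, 34 bp before the inner start, and 22 bp from the start of Mpp6. It had 47.3, 65.3 and 90.7 in replicates 1, 2 and 4, a relative signal of 1.27 ± 0.339 (SD, n = 3). Replicate 4 was well above replicate 1, at ranks 2981 and 5680. The stronger peak within 2 kb (21158572 to 21158748, pooled signal 367.1, rank 1430) was 1925 bp upstream, 63 bp from the start of Coq3 and 173 bp from that of Pld3. It had 117.9, 111.5 and 129.9, and its 2.27 ± 0.115 was one of the steadiest of all.

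Dp, the partner of both E2F proteins, had peaks at 2 of its 3 starts. The gene lies at 2R, 13222433 to 13228202, plus strand, with 1 isoform from each start. The strongest peak (13223254 to 13223534, pooled signal 692.6, rank 459) was 214 bp before the second start, in an intron of the longest isoform. It had 211.5, 146 and 333.7 in replicates 1, 2 and 4, at ranks 534, 748 and 363, and a relative signal of 4.32 ± 1.58 (SD, n = 3). A second peak lay 395 bp past the same start, 609 bp from the first (13223877 to 13224061, pooled signal 338.6), with 125.1, 76.6 and 165.5 and a relative signal of 2.30 ± 0.761. At both of these Dp peaks replicate 4 was highest and replicate 2 lowest. The third (13222170 to 13222625, pooled signal 256.5) stood 35 bp before the first start, within the divergent gene Fsn and 60 bp from its start. Its 67.6, 79.3 and 100.2 gave a relative signal of 1.55 ± 0.223. The third start, of 1 isoform, had no optimal summit within 500 bp.

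The strongest of all 16 peaks stood beside CycB, a mitotic cyclin gene, but not at a start. CycB lies at 2R, 22803521 to 22806948, minus strand, with 4 isoforms from 3 starts. The summit (interval 22802798 to 22803149, pooled signal 1322, rank 101) lay 554 bp past the end of CycB, between it and blw, whose end faces that of CycB. The nearest start of any protein-coding gene was still that of a CycB isoform, 3336 bp away. Signals of 409.8, 388 and 525.3 in replicates 1, 2 and 4 put it at ranks 126, 73 and 137. Its relative signal of 8.33 ± 0.981 (SD, n = 3) was above that of every other member peak, with no overlap of replicate values. At the first start of CycB the pooled list held only a weak region, 110 bp upstream, with a signal of 83.3 at rank 10768. That region had a match in replicates 1 and 4, with signals of 30.6 and 19.6, and none in replicate 2.

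The kinase inhibitor gene dap (2R, 9712321 to 9716256, plus strand, 1 isoform) had the weakest of the 16 peaks. It lay 502 bp before the start (9711591 to 9712046), 2 bp outside the promoter window, with a pooled signal of 149 at rank 5169. The replicates differed widely in rank, at 12769, 5694 and 4501 in replicates 1, 2 and 4, from signals of 26.7, 49.5 and 63.3. Its relative signal was 0.870 ± 0.307 (SD, n = 3), and only in replicate 4 was it above 1. A weaker pooled region 238 bp before the start had a signal of 124.4, below the optimal list, and was matched in each replicate with 32.8, 43.5 and 43.6.

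CycA, CycD, Rbf and stg had no optimal peak, but the pooled list held weaker regions at each. The phosphatase gene stg (3R, 29251826 to 29255800, minus strand) came closest: a region 156 bp past its end had a pooled signal of 138.9 at rank 5661, against 148.2 at the lowest optimal peak. It had 43.0, 45.5 and 47.7 in replicates 1, 2 and 4, a relative signal of 0.860 ± 0.0111 (SD, n = 3), below 1 in each. The pooled list placed 10 weak regions within 2 kb of stg, and the nearest optimal summit was 18997 bp away.

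CycD (X, 15906822 to 15909676, minus strand) had a pooled region of 117.3 at rank 7009, 456 bp before its start. Replicate 4 gave it 57.2, inside its strongest 5208, replicate 2 gave 29.99, and replicate 1 held no match. Rbf (X, 797090 to 801479, minus strand) had 82.9 at rank 10827, 221 bp before its start, with 22.9 in replicate 2, 30.3 in replicate 4 and no match in replicate 1. CycA (3L, 11826719 to 11833578, minus strand) had the weakest best region, 72.1 at rank 13015 and 152 bp past its start in an untranslated exon, matched only in replicate 2 with 22.6. The nearest optimal summit was 16388 bp from CycD, 31912 bp from Rbf and 3910 bp from CycA. Depth is unknown, so a missing region was not detected in these lists, which need not mean that no protein was there.

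Each of the 16 optimal peaks had a match in every replicate, but their strength varied. All 16 had a summit within 100 bp in each of the 3 whole replicate lists, against 83.2% of all optimal peaks. The largest offset was 86 bp, which the 100 bp limit bounds. With a limit of 50 bp 12 of 16 were matched in all 3, a share not counted over all optimal peaks. The optimal list was derived from these replicates, so such matches are in part built in. Among the 5208 strongest regions of each replicate, 10 of 16 were matched in all 3, against 53.4% of all optimal peaks. Another 3 were matched in 2 replicates, and 3 in 1 replicate, namely the dap peak and the E2f1 peaks of windows 2 and 4. The coefficient of variation of the relative signal ran from 4.83% to 45.4% with a median of 21.5%, against a median of 25.8% over the 4331 optimal peaks matched in every replicate. Replicate 2 had the lowest relative signal at 9 of 16 peaks (56.3%) and replicate 4 the highest at 11 (68.8%), where the shares over those 4331 peaks were 63.5% and 56.9%. Ordered by mean relative signal, 13 of the 15 neighbouring pairs overlapped in the range of their replicate values. The 2 that did not were the CycB peak against the stronger CycE peak, and the upstream E2f2 peak against the strongest E2f1 peak. Since all peaks were measured in the same replicates, each pair was also compared within a replicate: in 4 pairs the higher peak was higher in all 3. These were the pairs without overlap and 2 more, the weaker CycE peak against the Dp peak past the second start, and the strongest E2f1 peak against that at the InR start.

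**Figure D2:**
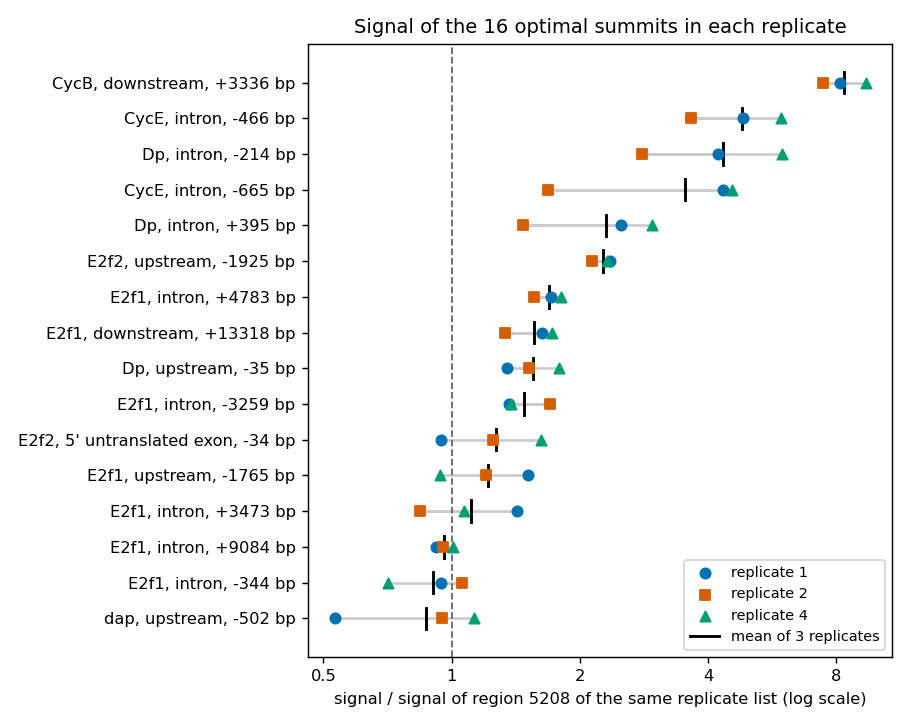
Signal of each of the 16 optimal summits divided by the signal of region 5208 of the same replicate list (horizontal axis, log scale, no unit), with points for replicates 1, 2 and 4 and a bar for their mean. Row labels give the gene, the place and the distance to the nearest start of that gene, negative before the start. The CycB peak is highest at 8.33, and the dap peak lowest at 0.870.

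Replicate 2 listed more regions around these genes than the others did. Its list held 93 regions inside or within 2 kb of the 10 genes, and those of replicates 1 and 4 held 54 each. The mean per gene was 5.40, 9.30 and 5.40 in replicates 1, 2 and 4, against 2.69, 3.16 and 2.61 over all protein-coding genes. These counts were not adjusted for length, and each of the 10 genes is longer than the median gene. E2f1 alone had 24, 42 and 23 regions, and without it the means were 3.33, 5.67 and 3.44. CycA had 1, 7 and 0 regions, E2f2 had 3, 8 and 3, Rbf had 2, 6 and 2, and stg 6, 6 and 8. Among the 5208 strongest regions the counts were closer, with 5, 7 and 5 at E2f1 and none at CycA in any replicate. Each whole list holds 30000 regions, peaks and background together.

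**Figure D3:**
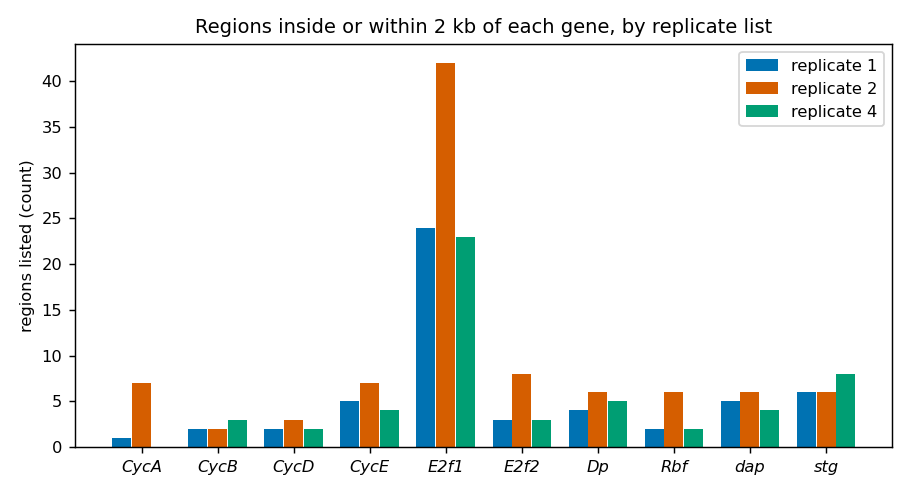
Number of regions (vertical axis, count) that each whole replicate list held inside or within 2 kb of each gene. Replicate 2 is highest at CycA with 7, at E2f1 with 42, at E2f2 with 8 and at Rbf with 6, and replicate 4 is highest at stg with 8.

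The letters of known binding sites were found at some of these summits, with single motifs more or less frequent than at all peaks. Of 9 motifs searched on both strands in the 201 bp around each summit, 6 of 16 windows (37.5%) held at least 1, against 43.1% of all 5208. The E2F site forms TTTCCCGC, TTTGGCGC and TTTCGCGC were in none of the 16 windows and in 2.55% of all. The full bZIP site TGACGTCA, the DRE element TATCGATA and the Motif 1 letters GGTCACAC were also in none, against 0.442%, 2.995% and 2.13% of all windows. The bZIP core TGACG, which the full site contains, was in 3 windows, at E2f1 window 2, the Dp peak past the second start and the dap peak, against 13.8% of all. The FOXO letters TGTTTAC were in 3 windows, at the E2f2 promoter, the Dp peak of the first start and the dap peak, against 7.74%. The GAGA letters GAGAG were in 2, E2f1 window 1 and the dap peak, against 22.5%. A match is only a match of letters, and so few windows give no more than a description.

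The matches at E2f2 and E2f1 are shown, since they are the only such letters at the E2F genes, on the genomic plus strand, 30 bases each, 5' to 3', with the matched letters in capitals. All 3 read as the reverse complement of the letters searched.
FOXO letters at the E2f2 promoter, chr2L:21156318-21156347: attttaaacagGTAAACAtttttaatattt
bZIP core at E2f1 window 2, chr3R:21651389-21651418: cctatacacccCGTCAaatacagggtattt
GAGA letters at E2f1 window 1, chr3R:21656919-21656948: atcgaaataccCTCTCttctgctgaacata

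Most summits were poorer in G and C than the sequence beside them. The 201 bp windows held a median of 32.3% G and C (range 23.4 to 54.7), against 35.3% over all optimal peaks. At 15 of 16 peaks the window held less G and C than the flanks 400 to 600 bp away, against 77.8% of all optimal peaks. The exception was the peak at the InR start downstream of E2f1, with 50.7% against 38.1% in its flanks. E2f1 window 4 and the stronger CycE window were the lowest, at 23.4% and 23.9%, and the Dp peak of the first start was the highest.

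Of the 16 summits 9 (against 45.8% of all optimal peaks) were within 500 bp of the start of some protein-coding gene. At 6 of these the start was that of the cell cycle gene itself, and at 3 it belonged to a neighbour, namely Archease, InR, or Coq3 with Pld3. By nearest start, 12 summits belonged to their cell cycle gene and 4 to InR, Archease, Coq3 or Mpp6. Both summits of E2f2 were among these 4, so by this rule E2f2 had no peak. The split by nearest start was not counted over all optimal peaks.

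Genes of 3 further lists were counted by the same rule. The list of cyclins and kinases was taken by family and is not limited to the division cycle, since it holds Cdk12. Among 19 further cyclin and cyclin-dependent kinase genes, 8 had an optimal summit within 2 kb (42.1%, 95% Wilson interval 23.1 to 63.7) and 5 a promoter peak (26.3%). The promoter peaks were led by Cdk12, a kinase of transcription elongation, at a pooled signal of 551 with SAK within 500 bp, Cdk1, the mitotic kinase, at 362 with mRpS7, and Cdk4, the partner of CycD, at 190.4. Cdk2, the partner of CycE, had no optimal summit. Among 10 genes of Rb, E2F and Myb complexes and their corepressors, 8 had a summit within 2 kb (80%, interval 49.0 to 94.3) and 5 a promoter peak (50%). The strongest were at Sin3A, a corepressor scaffold (623), Rbf2, the second fly retinoblastoma-family gene (354, shared with CG32856), and mip130, a subunit of the Myb complex (264, shared with Edem1). Among the strongest promoter peaks of each of these 5 genes, only that of Sin3A was not shared with a neighbour. The Rbf2 peak had 104, 88.5 and 166.7 in replicates 1, 2 and 4, whereas Rbf itself had no optimal peak. Among 20 genes for inhibitors, activators and protein degradation, 8 had a summit within 2 kb (40%, interval 21.9 to 61.3) and 5 a promoter peak (25%). These were led by aurB, the Aurora B kinase (222, shared with Stam), fzr, an activator of the anaphase-promoting complex (214), and aurA, the Aurora A kinase (209.8, shared with CG3281). The peaks of aurB, fzr and aurA had no match in replicate 2, and that of mip130 none in replicate 4. The shares of all genes, 36.1% within 2 kb and 20.6% at a promoter, lay below both intervals of the Rb, E2F and Myb list (promoter interval 23.7 to 76.3) and inside those of the other lists. All intervals overlap those of the 10 genes. The lists were chosen with earlier results known, so a share of all genes that lies outside an interval is a description and not a test. The shares were not adjusted for gene length, and the lists were not tested against each other or against all genes.

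**Figure D4:**
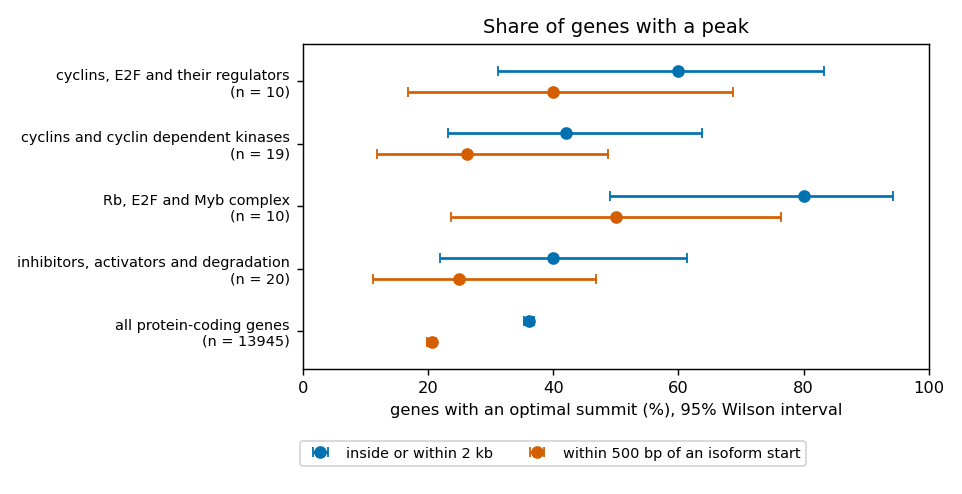
Share of genes with an optimal summit (horizontal axis, %), with 95% Wilson intervals for counting error only. Rows are the 10 genes, 3 further lists taken by family or role, and all protein-coding genes. Blue points count summits inside or within 2 kb, and orange points those within 500 bp of an isoform start. The 10 genes stand at 60% and 40%, and all genes at 36.1% and 20.6%.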

How the data were processed

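The members and gene lists were chosen with earlier results of these data known. The authors' dm6 peak lists were used. Per the deposited inventories, regions were called on each replicate and on the pooled reads against a control, and the optimal list holds regions that passed the irreproducible discovery rate. The sources used here do not give the aligner, the caller or the threshold. The deposited signal per region has no stated normalization, and depth is unknown. The deposited −log10 q values are not reported.

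Summits (start plus offset) were assigned to Ensembl release 115 genes within 2000 bp, matched within 100 bp to the nearest replicate summit, and ranked by signal. Every member and every optimal summit at one is named. Other genes named are neighbours of the peaks described, the 3 strongest promoter peaks per list, and Cdk2, chosen after its values were seen. Sequence was read from RefSeq dm6. Assignment, matching and motif search were tested on simulated data. Alternatives were other distances, stronger peaks, replicate lists, windows and each replicate left out. The dm3 lists were not used here, and no sequence of arm 2R is printed. The tools were Python 3.11.15 with pandas 2.3.3, numpy 2.4.6, matplotlib 3.10.9 and scipy 1.17.1.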

Additional observations from a re-analysis of the deposited data

How the results depend on the processing

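Of the alternatives tried, those not named here stayed within 1.5 times the reported count. The 4 genes with a promoter peak became 2, E2f2 and Dp, within 250 bp of a start, and also 2, CycE and Dp, with the stronger 50% of peaks, settings in which 16.1% and 12.3% of all genes had one. The 16 summits became 10 when only those inside the gene were counted, and 8 with the stronger 50% of peaks. The 16 summits matched in all replicates became 10 when only the strongest regions of each replicate list were used. The 6 windows with any searched motif became 10 with 150 bp to each side (62.5%), where 58.2% of all windows held one. Each follows from fewer peaks or from wider or narrower windows. Leaving out any 1 replicate gave 16 matched summits at 6 genes, which says nothing of stability, since all 16 were matched in every replicate and the optimal list was kept. With 5 kb around the genes CycA gained a peak, and 7 genes had one, against 49.4% of all genes. Depth is unknown, so it is uncertain on which side of the lower limit of the optimal list a region near it belongs. Examples are the dap peak just above that limit and the stg region below it.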

Other observations

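Between 2 and 5 kb from the genes lay 5 more optimal summits. Of these 2 were past the end of CycA, 3910 and 4206 bp away, with pooled signals of 308.6 and 261.9. CycB had 1 at 4507 bp (436.8), CycE 1 at 3115 bp (167.4) and Dp 1 at 2119 bp (280.8).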
